A study of Mus musculus with 9 samples.

Results

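The peaks described here lie on chromosome 9 around Tlr9, the endosomal receptor for CpG-rich DNA and the gene that was modified in these mice. They are the ATAC-seq peaks overlapping the Tlr9 body (106222598 to 106226876, mouse build mm10) or the 10 Mb on either side of it, from 96222598 to 116226876. The window holds 616 of 61540 peaks, of which 222 lie below Tlr9 in coordinate, 392 above it and 2 overlap it. The position alone chose them, and none of their values entered the choice. ATAC-seq uses a transposase that inserts sequencing adapters into open DNA, so that a higher value stands for a more accessible stretch of chromatin. It was applied to splenic age-associated B cells, isolated by flow sorting from 20-week-old mixed bone marrow chimeras of 3 donor genotypes on the MRL/lpr background, a strain that carries the lpr mutation of Fas and develops a lupus-like disease. All groups share that background, with its Fas mutation, and the chimeric setting. The groups, with 3 samples each, are Tlr9-/- (KO), Tlr9 P915H/P915H, which encodes a receptor with an amino acid change (P915H), and intact Tlr9 (WT). The sources used here do not give how the alleles were made, which part of Tlr9 the KO lacks, how the donor cells were told apart, or whether samples of 1 genotype are from different mice. The p-values thus reflect the variation among these 9 samples, part of which may be technical. In a sorted population, fewer cells of a kind and a less open site per cell cannot be told apart.

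Tlr9 sits in B cells and dendritic cells as the sensor of DNA that reaches endosomes, and signals through the adaptor Myd88. Age-associated B cells build up with age and in lupus, and typically express the integrin gene Itgax and the transcription factor gene Tbx21. An engineered allele is inherited together with the DNA next to it, and the window was drawn to ask whether differences between the genotypes gather there. No sequence variant was analysed. In or within 2 kb of the gene, all 5 B cell marker genes had peaks (38 in all), as did all 6 markers of age-associated B cells (47), with 7 peaks at Itgax and 8 at Tbx21. None of 6 neutrophil markers had a peak, 3 of 4 macrophage and monocyte markers had 5 in all, 5 of 6 T cell markers had 7, and all 4 dendritic cell markers had 32. All 4 follicular B cell markers had peaks too (15). The strongest peak by mean log2 level was 6.87 for dendritic cells (Xcr1), 6.10 for B cells (Pax5) and 5.89 for follicular B cells (Ccr7). It was 5.87 for T cells (Cd3d) and 4.85 for age-associated B cells (Tbx21). Other markers of these lists were lower. Of the T cell markers, Trac reached 4.48, but Cd4 only 1.94, Cd3g 1.21 and Cd3e 1.11, and Cd8a had no peak. Fcer2a (follicular B cells) reached 1.11, Siglech (dendritic cells) 2.38 and Cxcr3 (age-associated B cells) 3.57. The highest values were 2.92 for natural killer cells (Klrb1c) and 4.47 for erythroid cells (Klf1). These values do not establish the purity of the sort.

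The sequences upstream of 4 genes are shown because they carry the outcomes found at start sites in the window. Tlr9 is the modified gene, whose start site showed no difference that passed the test. Tmem108 and Pxylp1 have start sites that were less accessible in KO than in P915H, and Abhd14a has one that was more accessible. Each is the 250 bases before the annotated start, 5′ to 3′ in the direction of the gene, from RefSeq (GRCm38.p6, the same coordinates as mm10). Capitals mark matches on either strand to one of 9 short motifs: ETS GGAAGT, AP-1 TGANTCA, CRE TGACGTCA, Runx TGTGGT, E protein CAGGTG, T-box GGTGTGA, NF-Y CCAAT, Sp/KLF GGGCGG and an IRF motif of spaced repeats.
Tlr9, chr9:106222348-106222597, plus strand: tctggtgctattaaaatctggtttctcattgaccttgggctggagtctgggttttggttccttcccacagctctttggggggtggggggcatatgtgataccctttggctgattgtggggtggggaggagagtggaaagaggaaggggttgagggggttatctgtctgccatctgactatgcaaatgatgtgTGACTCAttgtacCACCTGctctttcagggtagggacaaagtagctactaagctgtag
Tmem108, chr9:103761838-103762087, minus strand: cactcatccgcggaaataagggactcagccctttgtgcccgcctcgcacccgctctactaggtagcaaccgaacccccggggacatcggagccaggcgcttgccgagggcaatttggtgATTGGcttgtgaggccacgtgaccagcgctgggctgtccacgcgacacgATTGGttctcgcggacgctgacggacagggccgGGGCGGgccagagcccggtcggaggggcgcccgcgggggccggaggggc
Pxylp1, chr9:96889475-96889724, minus strand: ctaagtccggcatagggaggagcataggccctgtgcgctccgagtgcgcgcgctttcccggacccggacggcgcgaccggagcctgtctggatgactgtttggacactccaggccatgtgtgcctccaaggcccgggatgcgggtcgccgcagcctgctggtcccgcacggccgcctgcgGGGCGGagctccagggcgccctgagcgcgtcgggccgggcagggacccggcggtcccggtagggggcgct
Abhd14a, chr9:106447679-106447928, minus strand: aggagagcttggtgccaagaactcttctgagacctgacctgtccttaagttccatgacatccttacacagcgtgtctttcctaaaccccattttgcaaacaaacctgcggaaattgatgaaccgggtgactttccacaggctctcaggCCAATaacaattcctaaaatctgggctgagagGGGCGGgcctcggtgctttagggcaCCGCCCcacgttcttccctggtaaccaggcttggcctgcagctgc
The Tlr9 stretch had 50.4% G and C and no CpG dinucleotide, close to the median of 52.4% but below the median of 6 CpG over the same stretch of 32817 annotated starts. It held 1 AP-1 match, found in 6.75% of those starts, and 1 E protein match, found in 17.2%. The Tmem108 stretch had 69.2% G and C, 27 CpG, 2 NF-Y matches (33.8% of starts have at least 1) and 1 Sp/KLF match (32.7%). The Pxylp1 stretch had 73.6% G and C, 30 CpG and 1 Sp/KLF match. The Abhd14a stretch had 53.2% G and C, 7 CpG, 1 NF-Y match and 2 Sp/KLF matches. A match describes the letters and is not evidence of a bound factor.

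Tlr9 itself showed no difference between the genotypes that passed the test. Its start site peak (106222230 to 106222641), which spans the Tlr9 sequence printed above, was among the more accessible peaks nearby. All values are log2 of a level scaled like CPM of reads in peaks. The KO samples had 6.02, 5.75 and 5.86, the P915H samples 6.0, 6.11 and 5.97, and the WT samples 5.97, 6.13 and 6.16. The 3 groups overlapped. The differences were -0.22 for KO minus WT (limma adjusted p = 0.294), -0.06 for P915H minus WT (0.898) and -0.15 for KO minus P915H (0.376). The second peak, within the gene body (106222910 to 106223290), had 3.58, 3.49 and 3.46 in KO, 3.31, 3.29 and 3.44 in P915H and 3.54, 3.65 and 3.52 in WT. Here P915H was the lowest of the groups and did not overlap the other groups, but none of the 3 differences passed (adjusted p of 0.845 for KO minus WT, 0.741 for P915H minus WT and 0.484 for KO minus P915H). Since the deleted part of the gene is unknown, these peaks do not check the KO label.

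None of the peaks beside Tlr9 passed either, although not all of their differences were small. Twf2, an actin monomer-binding protein gene just below Tlr9, had peaks with differences between -0.28 and 0.36 over the 3 comparisons. The nearest peak above the gene (106230019 to 106230222, 3.1 kb away) had 3.62, 3.61 and 3.64 in KO, 3.31, 3.47 and 3.30 in P915H and 3.87, 3.73 and 3.86 in WT. The 3 groups were ordered without overlap, with WT highest and P915H lowest, yet the largest difference, -0.46 for P915H minus WT, had an adjusted p of 0.328. Next to it lies a peak near Alas1, the first enzyme of haem synthesis, with differences of -0.07, -0.15 and 0.08 in KO minus WT, P915H minus WT and KO minus P915H. Another Alas1 peak (106247451 to 106247783, 0.0206 Mb above Tlr9) had wider differences. They were 0.49 for KO minus WT (limma adjusted p = 0.628) and, in the other direction, -0.71 for P915H minus WT (0.766).

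**Figure D1:**
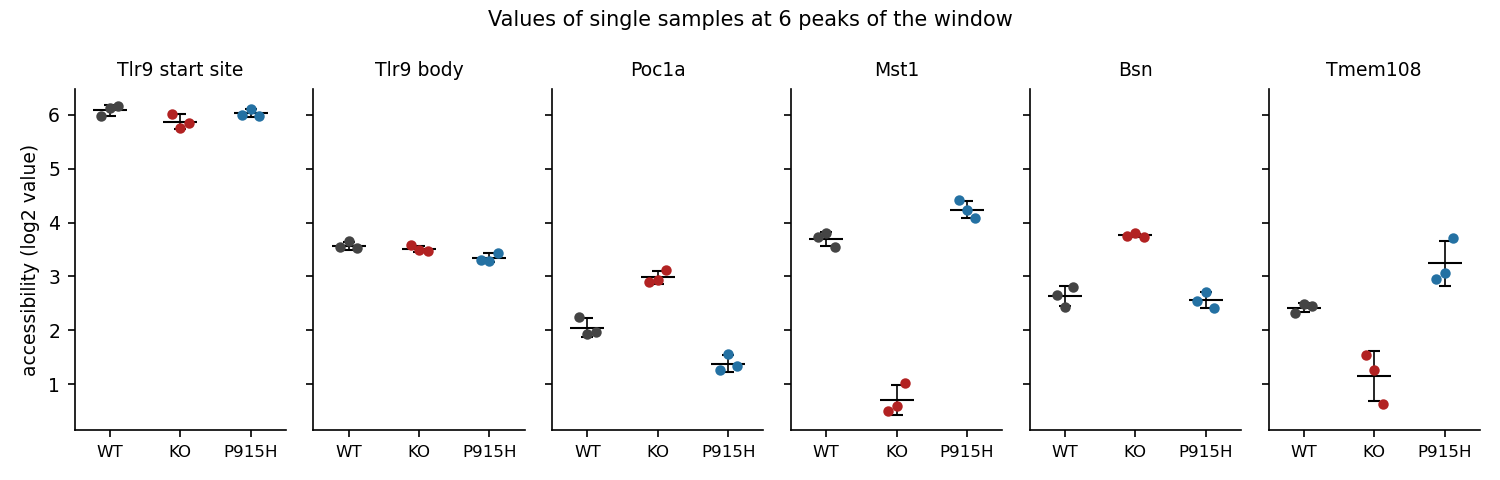
Log2 accessibility (vertical axis) of each sample at 6 peaks of the window, by genotype, with the mean as a long bar and the SD over 3 samples as whiskers. At the 2 Tlr9 peaks no difference passed the test, although P915H lies lowest at the body peak; the KO samples lie lowest at Mst1 (0.50 to 1.02) and at Tmem108, and highest at Poc1a and Bsn.

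KO against WT asks what absence of the receptor changes. In the window 1 of 616 peaks passed an adjusted p under 0.05 (0.162%), beside 0.0195% of all peaks tested (12 peaks). It was lower in KO, as were 0.0146% of all peaks, and none was higher, against 0.00487%. That peak lies in Mst1, which encodes macrophage-stimulating protein, a secreted ligand of the receptor tyrosine kinase encoded by Mst1r. Large differences, counted without a test, were about as frequent here as elsewhere. A difference of at least 1 on the log2 scale, a factor of 2 in level, was found at 21 peaks (3.41%), against 3.1% of all peaks and 2.94% of the rest of chromosome 9. Of those 21 peaks, 17 were lower in KO (2.76%, against 2.41%) and 4 higher (0.649%, against 0.684%). Over the 19 autosomes this share ran from 2.33 to 3.95%. The median absolute difference was 0.20 both in the window and over all peaks, and the groups did not overlap at 31.7% of window peaks and 32.2% of all peaks. Differences of at least 2 numbered 3 (0.487%, against 0.0942% of all peaks), at Mst1, Tmem108 and Gm39448.

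Close to Tlr9 the counts are small in every comparison. None of the 31 peaks within 0.1 Mb and none of the 60 within 0.5 Mb differed by 1 or more between KO and WT, where the share of 3.1% over all peaks amounts to few peaks, and the range within 0.5 Mb was -0.88 to 0.94. Within 0.1 Mb the counts were 1 of 31 for P915H minus WT (3.23%, against 1.14% of all peaks) and 4 of 31 for KO minus P915H (12.9%, against 8.31%), 1 in the first and 3 in the second of them in Poc1a. For KO minus WT there was 1 such peak among 88 within 1 Mb, in Pik3r4. In that comparison there were 4 among 211 within 2 Mb (1.9%) and 13 among 412 within 5 Mb (3.16%). The Pik3r4 peak, in the gene of a regulatory subunit of class III phosphoinositide 3-kinase, had a KO minus WT difference of -1.13 (adjusted p = 0.098).

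**Figure D2:**
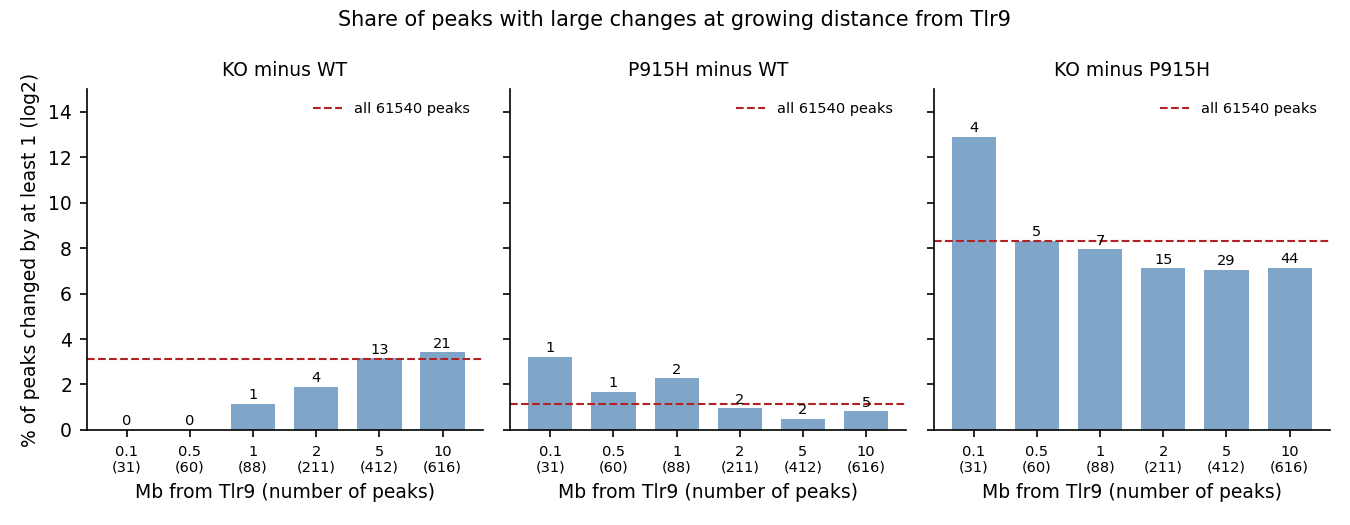
Percentage of peaks that differ by at least 1 on the log2 scale (vertical axis) among the peaks within 0.1, 0.5, 1, 2, 5 and 10 Mb of Tlr9 (horizontal axis, with the number of peaks in brackets), for each comparison. Numbers on the bars count such peaks and the dashed line is the share of all 61540 peaks; KO minus WT is at 0 within 0.5 Mb.

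The Mst1 peak (108083259 to 108083472, within the gene body, 1.86 Mb above Tlr9) separated KO from both other genotypes. KO samples had 0.50, 0.60 and 1.02, WT samples 3.73, 3.81 and 3.54, and P915H samples 4.41, 4.23 and 4.08. Every KO value was more than 2 log2 units below every WT and P915H value. The fall against WT was by 2.99 on the log2 scale (SE 0.19), or 7.95-fold, with an adjusted p of 0.00134, the smallest of the 61540 peaks. By size it ranked 11th, and 2nd among peaks with a mean log2 level of at least 1. It fell by 3.54 against P915H (SE 0.19, adjusted p = 5.94e-05). P915H minus WT was 0.55 (adjusted p = 0.487), with the lowest P915H value above the highest WT value. This is the only peak of Mst1.

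None of the 4 nearest peaks on either side passed between KO and WT. On the lower side, the 4 nearest peaks all lie in Rnf123, a ubiquitin ligase gene, with KO minus WT between -0.22 and 0.39, the nearest only 3849 bp away. On the upper side a peak of Apeh, the acylpeptide hydrolase gene, lies 10.9 kb away with 0.14. A peak farther up, in Bsn, which encodes the presynaptic scaffold bassoon (108104833 to 108105096, 21361 bp from the Mst1 peak), went the other way. There KO had 3.75, 3.80 and 3.73, WT 2.66, 2.44 and 2.81, and P915H 2.55, 2.71 and 2.41. KO lay above both other groups, which overlapped, and KO minus WT of 1.12 missed the threshold (adjusted p = 0.0583) while KO minus P915H of 1.2 passed (0.00254). A peak 3691 bp from Mst1r, the receptor gene for the Mst1 product, had 1.46, 1.67 and 2.31 in KO, 2.79, 3.08 and 2.87 in WT and 2.76, 2.26 and 1.83 in P915H, a KO minus WT difference of -1.10 (adjusted p = 0.0919). The other of the 2 peaks assigned to Mst1r was higher in KO than in WT, and the median difference over both was -0.30.

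The one stretch where large KO minus WT differences followed each other was Tmem108, which encodes a transmembrane protein known mainly from neurons. The gene spans 103482936 to 103761900, about 2.5 Mb below Tlr9, and was described at gene level after its values had been seen. A run, meaning at least 3 neighbouring peaks with a difference of at least 1 in the same direction, was found once in the window for KO minus WT. It covered 3 peaks of Tmem108 over 43.1 kb (103654163 to 103697302) with -2.05, -1.40 and -1.78. Runs held 0.487% of window peaks and 0.255% of all peaks, where there were 44 runs. All 11 Tmem108 peaks had a negative KO minus WT difference, with a median of -1.01, and at 10 of them KO did not overlap WT, against 31.7% of window peaks and 32.2% of all peaks. An unadjusted p under 0.05 was reached by 9 of the 11, against 17.7% of window peaks and 18.7% of all peaks, but 0 passed after adjustment, with 0.0656 as the smallest adjusted p.

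Against P915H the same gene passed at 7 of its 11 peaks, all lower in KO, beside 8.97% of all peaks that passed as lower. The peak at 103740275 to 103740509 is an example. KO had 1.53, 1.26 and 0.63, P915H 2.96, 3.06 and 3.72, and WT 2.32, 2.49 and 2.46. WT lay between the other genotypes without touching either. KO minus P915H was -2.10 (SE 0.29, adjusted p = 0.00232), KO minus WT -1.28 (0.0678) and P915H minus WT 0.82 (0.472). At the start site peak (103761861 to 103762062), whose sequence is printed above, KO had 1.99, 1.66 and 1.45, WT 2.57, 2.42 and 2.69, and P915H 2.97, 3.45 and 3.40. The same order without overlap held there, and KO minus P915H was -1.57 (adjusted p = 0.00252). The most accessible Tmem108 peak (103708613 to 103708860) had 4.75, 4.19 and 4.07 in KO, 5.02, 5.18 and 5.25 in WT and 5.24, 5.64 and 5.68 in P915H. KO was the lowest group there too, with KO minus P915H of -1.19 (adjusted p = 0.00419). The peak next to the start site peak (103759070 to 103759246) was the only 1 of the 11 with a positive sign, 0.13 for KO minus P915H. P915H minus WT had a median of -0.03 over the 11 peaks, and 0 passed. The count of 7 ranged from 3 to 8 when single samples were left out, with 3 without P915H replicate 2, and 4 without KO replicate 2, KO replicate 3 or P915H replicate 3. For KO minus WT the count of 0 became 7 without KO replicate 1, where 5.43% of all peaks passed.

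**Figure D3:**
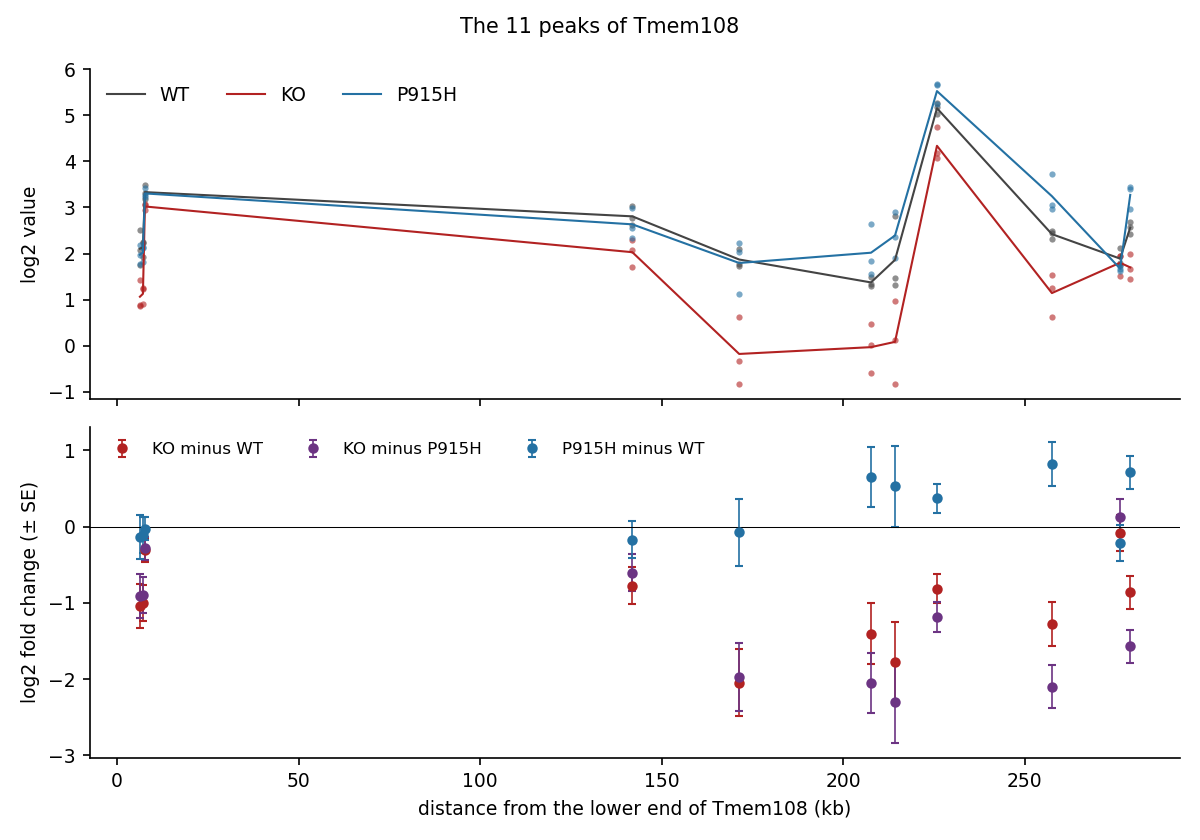
The 11 peaks of Tmem108 by distance from the gene's lower end in kb (horizontal axis). Above, log2 values of each sample as points with lines through the genotype means; below, fitted log2 differences with SE for the 3 comparisons. KO minus WT is below 0 at all 11 peaks, while P915H minus WT lies on both sides of 0.

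P915H against WT asks what the altered receptor changes. No window peak passed in limma's test, beside 0.255% of all peaks (157), and none of the 412 peaks within 5 Mb did. An unadjusted p under 0.05 was reached by 42 window peaks (6.82%, against 7.72% of all peaks). Differences of at least 1 were found at 5 peaks (0.812%, against 1.14%), of which 2 lie in Armc8, a subunit gene of a ubiquitin ligase complex, and 1 each in Nek11, Poc1a and Gadl1. The peak with the smallest adjusted p was in Dag1, the dystroglycan gene (108218228 to 108218436). P915H had 2.77, 2.74 and 2.80, WT 3.52, 3.62 and 3.37, and KO 3.62, 3.54 and 3.73. P915H was lower than both other genotypes, which overlapped, by -0.73 against WT (adjusted p = 0.0957). KO minus P915H at that peak was 0.86 and passed (adjusted p = 0.00505). No difference reached 2 (0.112% of all peaks did), and the groups did not overlap at 18.5% of window peaks and 21.5% of all peaks. The window held no run in this comparison, while 29 runs among all peaks held 0.197% of them.

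KO and P915H differed at more peaks than either did from WT. In the window 74 peaks passed (12%), beside 15.5% of all peaks and 15.4% of the rest of chromosome 9. In KO, 31 were higher (5.03%, against 6.55% of all peaks) and 43 lower (6.98%, against 8.97%). The share on single autosomes ran from 12.6 to 18.5%. Leaving out 1 sample moved the count of 74 to between 21 and 87. It was 21 without P915H replicate 2 (3.41%, against 5.24% of all peaks) or without KO replicate 3 (3.41%, against 5.8%). It was 87 without WT replicate 3 (14.1%, against 17.9%). Of the 74, 17 passed whichever sample was left out. Those 17 include the peaks of Mst1, Armc8, Bsn, Dag1 and Pfkfb4, 1 peak of Poc1a and 3 of Tmem108 named here. Differences of at least 1 were found at 44 peaks (7.14%, against 8.31% of all peaks) and of at least 2 at 8 (1.3%, against 0.947%), and the groups did not overlap at 40.1% of window peaks and 42.2% of all peaks. Close to Tlr9 the share of passing peaks was 4 of 31 within 0.1 Mb (12.9%) and 9 of 60 within 0.5 Mb (15%). The nearest passing peaks were in the overlapping genes Glyctk, encoding glycerate kinase, and D030055H07Rik, 62.2 kb below Tlr9 (0.51, adjusted p = 0.0269), and in Poc1a, 76.0 kb above it. Between them 23 peaks, over 142.5 kb and including both Tlr9 peaks, did not pass.

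**Figure D4:**
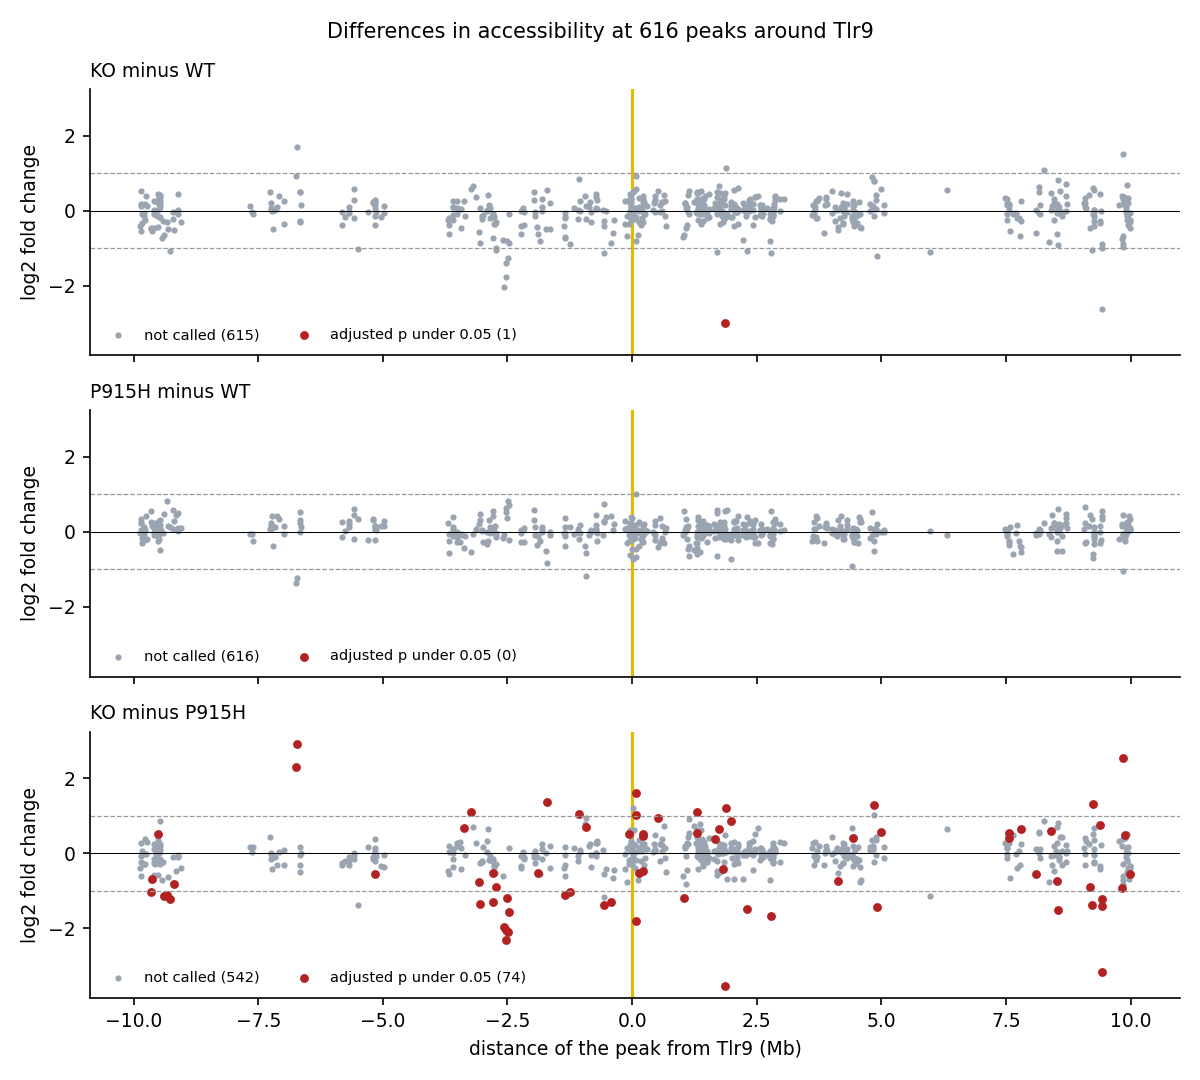
Fitted log2 differences (vertical axes) of the 616 peaks by distance from Tlr9 in Mb (horizontal axis, Tlr9 at the vertical line) for the 3 comparisons. Peaks past the threshold are red, dashed lines mark differences of 1 in either direction, and the Tmem108 peaks form the column of low values near -2.5 Mb in the top and bottom panels.

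Poc1a, which encodes a centriole protein, held the largest differences between KO and P915H within 0.5 Mb of Tlr9, in both directions. At 106303392 to 106303624 KO had 2.90, 2.94 and 3.11, WT 2.25, 1.93 and 1.96, and P915H 1.26, 1.55 and 1.34. The genotypes formed 3 steps without overlap, KO minus P915H was 1.60 (SE 0.20, adjusted p = 0.00183), and neither passed against WT (0.066 for KO and 0.371 for P915H). The adjacent peak at 106302921 to 106303294 rose by 1.03 (adjusted p = 0.0274). Another peak of the gene, at 106313037 to 106313275, fell by 1.81 (adjusted p = 0.0262), with 1.06, 0.08 and -0.50 in KO against 1.69, 2.24 and 2.12 in P915H. The order of KO and P915H was thus reversed within the gene, and 5 of the 8 Poc1a peaks did not pass. Beyond Poc1a, both start site peaks of the adjacent hydrolase genes Abhd14a and Abhd14b rose, by 0.46 (adjusted p = 0.0321) and 0.52 (0.0403). Another passing peak of Abhd14b, at 106452274, went the other way (-0.48). A peak of the MAP kinase phosphatase gene Dusp7 fell by 0.53 (0.0327). With each of 9 samples left out in turn, the Abhd14a call was lost 4 times and each Abhd14b call 7 times. The calls of Dusp7 and of the falling Poc1a peak were lost 4 and 5 times.

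The largest differences between KO and P915H lay farther out. Among the higher ones, a peak of Armc8 (99491173 to 99491340) had 1.83, 2.66 and 1.79 in KO, -1.01, -0.83 and -0.64 in P915H and 0.85, -0.16 and 0.53 in WT, a difference of 2.92 (SE 0.45, adjusted p = 0.00358). The peak next to it in Armc8 and Nme9 had 2.3. A peak of Gadl1, a decarboxylase gene (116075866 to 116076094), had 2.41, 2.65 and 2.05 in KO, -0.41, -0.13 and 0.02 in P915H and 1.07, 0.55 and 1.00 in WT, a difference of 2.55 (SE 0.33, adjusted p = 0.00204). At each of these sites the P915H samples were close to or below 0 and WT lay in between.

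Among the lower ones, Gm39448 gave the second run of the comparison, 3 peaks within 2.66 kb at 9.43 Mb above Tlr9 with -1.42, -3.18 and -1.22, all passing. Its middle peak (115655679 to 115655861) had -0.49, -2.09 and -1.39 in KO, 1.37, 2.10 and 2.11 in P915H and 0.95, 1.82 and 1.11 in WT, so that the size rests on very low KO levels. The first run was Tmem108, with 5 neighbouring peaks over 86.3 kb between -2.31 and -1.19, all passing. Runs held 1.3% of window peaks and 1.67% of all peaks. Pfkfb4, encoding a regulator of glycolysis, had 2.22, 1.33 and 2.22 in KO, 3.30, 3.88 and 3.66 in P915H and 3.07, 3.38 and 2.70 in WT at 109021889 to 109022108, a difference of -1.69 (adjusted p = 0.00529). Further falls were measured in Cmtm7 (-1.53), Qrich1 (-1.48), Lrrfip2 (-1.42), Gm39447 (-1.39) and Pik3r4 (-1.38). The Cmtm7 and Gm39447 peaks passed whichever sample was left out, while those of Qrich1, Lrrfip2 and Pik3r4 each lost the call with any 1 of 4 samples left out, and Qrich1 was at -0.89 without KO replicate 2. Further rises were measured at LOC108167682 (1.37), another peak of Gm39447 (1.30), Gm26409 (1.28), Gm31434 (1.09) and Cacna2d2 (1.09), of which the Gm31434 peak passed whichever sample was left out.

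WT lay between KO and P915H at nearly all passing peaks, in the window as over all peaks. Selecting peaks for a difference between KO and P915H by itself favours a middle place for WT. This order is therefore not a separate result. Its mean was in between at 30 of the 31 higher peaks (96.8%, against 96.4% of all such peaks) and at 39 of the 43 lower ones (90.7%, against 95.5%). Among the lower peaks WT was nearer to P915H at 39 of 43 (90.7%, against 87.2%), and among the higher ones at 19 of 31 (61.3%, against 50.3%). Below Tlr9 in coordinate 23 peaks fell and 9 rose among 222, and above it 20 fell and 22 rose among the others. Tmem108 alone gave 7 of those 23. The difference between the sides was not tested.

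Start site peaks were counted apart. Of 153 peaks that overlapped an annotated start (250 bases before to 50 after it), 0 differed by at least 1 in KO minus WT or in P915H minus WT, where the shares over all start site peaks were 0.496% and 0.219%. In KO minus P915H 3 did (1.96%, against 1.54%), and 8 passed (5.23%, against 5% of all start site peaks). They belonged to Pxylp1 (-1.13), Tmem108, Acpp (-0.52), Abhd14a, Abhd14b, Mon1a (0.38), Amigo3 (-0.42) and Fbxl2 (0.64). Only the Tmem108 call held with each of 9 samples left out in turn. The Pxylp1 call was lost 3 times, that of Amigo3 5 times, those of Mon1a and Fbxl2 6 times each and that of Acpp 7 times. At the Pxylp1 start, a xylose phosphatase gene whose sequence is printed above, KO had 2.50, 2.32 and 2.38, P915H 3.33, 3.30 and 3.96, and WT 2.81, 3.02 and 2.3. KO and WT overlapped there, and P915H was the higher group. Of 339 peaks in gene bodies 57 passed (16.8%, against 17.7%), and of 124 outside genes 9 passed (7.26%, against 17.7%). Start site peaks are 24.8% of the window and 17% of all peaks. The 21 peaks that differed by at least 1 between KO and WT had a median log2 level of 1.76 and the other 595 one of 3.05, beside 1.78 and 3.08 over all peaks.

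Of 24 immune and signalling genes of the window, 23 had peaks, 92 in all. In KO minus WT 1 peak was lower (Mst1) and 0 higher, in P915H minus WT none passed (5 had an unadjusted p under 0.05), and in KO minus P915H 3 were higher and 7 lower (10.9%, against 12% of the window and 15.5% of all peaks). The higher peaks were in Tgfbr2, a receptor chain for TGF-beta (0.48), Uba7, the activating enzyme for the ubiquitin-like Isg15 (0.65), and Zbtb38, a methyl-CpG binding protein gene (0.51). The lower ones were in Mst1, Pik3r4, the kinase gene Mapkapk3 (-1.20), Cmtm6, a regulator of PD-L1 (-0.75), Dusp7, and 2 peaks of Rasa2, a GTPase-activating protein for Ras (-1.04 and -0.69). Of these higher and lower calls only that of Mst1 held whichever sample was left out. The call of Tgfbr2 was lost 3 times, those of Uba7 and Zbtb38 5 times each, that of Mapkapk3 4 times and those of Rasa2 1 and 4 times. At Cmtm6 the KO samples had 5.15, 4.40 and 5.0, the P915H samples 5.52, 5.79 and 5.48 and the WT samples 5.26, 5.75 and 5.45, with KO below both groups, and the call was lost with any 1 of 5 samples left out (-0.40 without KO replicate 2). None of the 2 peaks of Trex1, the DNA exonuclease gene, or of the 11 peaks of the G protein gene Gnai2 passed in any comparison, with KO minus WT of -0.15 to -0.03 and -0.35 to 0.32. The median KO minus P915H difference over the 92 peaks was -0.03, against 0.00 over the window.

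All 12 genes of DNA repair and chromatin had peaks, 42 in all, and 1 passed in KO minus P915H (2.38%, against 12% of the window and 15.5% of all peaks), a peak of the helicase gene Rad54l2 that was higher by 0.94 (adjusted p = 0.0417). Its call was lost with any 1 of 7 samples left out. None passed against WT, where 2 had an unadjusted p under 0.05 in each comparison. Of 14 close neighbours of Tlr9, 13 had 39 peaks, of which 5 were higher and 3 lower in KO than in P915H (20.5%, against 12% of the window and 15.5% of all peaks), those of Glyctk, Poc1a, Abhd14a, Abhd14b and Dusp7 described above. This list was chosen with earlier results of these data known, so its share is no evidence of gathering near Tlr9. By position alone, 9 of 60 peaks within 0.5 Mb passed (15%), close to the share of all peaks. None of the 39 passed in KO minus WT or P915H minus WT, with 4 and 2 at an unadjusted p under 0.05.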

How the data were processed

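The authors deposited log2 values for 61540 ATAC-seq peaks in 9 samples and a table of peak coordinates. The submitters' processing notes name build mm10 and limma, MACS2, Picard 2.18.12, SAMtools, Bowtie2 2.3.3 and Trim Galore 0.6.5. Their roles, the normalization and whether peaks were called on pooled samples are not given in the sources used here. Antilogs of the deposited values sum per sample to 0.987 to 1.014 times what CPM of reads in peaks would. Depth is therefore unknown, and counting intervals cannot be computed. Averaged over genotypes, replicate numbers 1, 2 and 3 had equal values at each peak (within 1e-09), so a replicate effect had been removed before deposit. An SD within a genotype therefore understates the spread.

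All 9 samples and all peaks were fitted together with an intensity trend, genotype and replicate number in R 4.3.3 with limma 3.58.1, leaving 4 residual degrees of freedom. Tests were two-sided with Benjamini-Hochberg adjustment over 61540 peaks and a threshold of 0.05. The 3 comparisons share samples. No peak was filtered and no pseudocount added. Tables used NumPy 2.4.6 and pandas 2.3.3, plots matplotlib 3.10.9, all in Python 3.11.15, and the test was checked on simulated data. There, KO minus WT changes of 0.5, 1 and 2 were each given to 50 peaks per draw. With the replicate term they passed at 3.2%, 22.8% and 77.2% of those peaks. A peak that did not pass is thus not shown to be unchanged. Peaks were assigned to gene bodies they overlap, or the nearest within 100 kb, from RefSeq GRCm38.p6, and such an assignment does not establish regulation.

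Named peaks are those in or within 2 kb of Tlr9 and the 5 nearest on each side, every passing peak against WT, the 10 higher and 10 lower peaks with the largest passing difference between KO and P915H (1 per gene, groups not overlapping), the 10 with the smallest p against WT, runs, and the lists' genes. Other peaks, those of Tmem108 as a gene, passing start sites and passing list peaks among them, were chosen after their values were seen. Not every peak that this rule names is described, and 1 is not reported here. Members, lists and tests were chosen with earlier results of these data known. Sequences of peaks were planned, but only annotated starts were available as sequence. Alternatives covered the replicate term, normalization, a level filter, sample weights, the trend, the samples fitted, the threshold and each sample left out.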

Additional observations from a re-analysis of the deposited data

How the results depend on the processing

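With the replicate block left out, which counts 6 residual degrees of freedom where the values hold 4, the passing window peaks number 59 for KO against WT (reported: 1), 5 for P915H against WT (0) and 144 for KO against P915H (74). The window shares are then 9.58%, 0.812% and 23.4%, and those over all peaks 11.1%, 1.72% and 27.7%. Removal of the replicate effect before deposit forces same-numbered samples apart (median r -0.55, others 0.31), so pairing could not be tested. For KO against WT, a threshold of 0.1 gives 20 (3.25%, against 4.59% of all peaks) and quantile normalization 5 (0.812%, against 1.15%). Centring on sample medians gives 3 (0.487%, against 1.04%) and sample weights 8 (1.3%, against 2.5%). In each of these settings the window share is below that of all peaks, unlike the reported 1 peak (0.162%, against 0.0195%). Leaving out single samples gives 1 to 24, with 24 without KO replicate 1 (3.9%, against 5.43% of all peaks). For P915H against WT the threshold of 0.1 and sample weights each give 1 (0.162%, against 0.53% and 1.02% of all peaks). Leaving out single samples gives 0 to 0 (0.0114% to 0.18% of all peaks). For KO against P915H leaving out single samples gives 21 to 87. In the absence of P915H replicate 1, 2 or 3 it gives 39, 21 and 31 (6.33%, 3.41% and 5.03%, against 9.65%, 5.24% and 7.69% of all peaks). In that of KO replicate 2 or 3 it gives 28 and 21 (4.55% and 3.41%, against 6.2% and 5.8%). The share of peaks with a KO minus WT difference of at least 1 was 5.84% without KO replicate 1 (all peaks: 5.9%), 5.68% if WT replicate 1 was left out (5%) and 1.95% if KO replicate 2 was (2.17%). The Mst1 peak passed under all 17 alternatives, with differences of -3.22 to -2.84 and a largest adjusted p of 0.041. Of 1714 values of single named peaks under the alternatives, 1589 kept direction and call, 61 gained and 55 lost the call, and 9 changed sign, none of them called. With single samples left out, these KO minus WT differences ranged from -0.113 to 0.0013 at the Tlr9 body peak, from -0.126 to 0.208 and from -0.0698 to 0.525 at Twf2 peaks, and from -0.123 to 0.0265, from -0.0267 to 0.964 and from -0.282 to 0.420 at Alas1 peaks. The last Alas1 peak was also at -0.0279 with sample weights. The cause was not tested. Depth is unknown, and differences of weak peaks carry the largest errors.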
